A study of Homo sapiens with 14 samples.

Results

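Polycomb complex genes were examined in TC-32, an established Ewing sarcoma cell line that carries the EWSR1::FLI1 fusion. The set held 10 of the 19970 protein-coding genes on the autosomes and X, namely EZH2, EZH1, EED, SUZ12 and JARID2 of Polycomb repressive complex PRC2 and BMI1, RING1, RNF2, CBX2 and CBX7 of PRC1. They were chosen by name, and each was read in hg38 with GENCODE gene models for deposited peaks within 1 kb of its start and over its gene record with 10 kb either side. CUT&RUN, in which an antibody directs a nuclease to cut out the chromatin it binds, had been run on 14 samples of wild-type, untreated TC-32. The FLI1 antibody was used with 2 replicates in each of the sets A and B, H3K27ac in set A with 2 replicates, and H3K9me3 and H3K27me3 in set B with 2 replicates each. Both sets also had 2 IgG samples, which enter only as the control of the peak calls. The labels do not say how the sets differ, nor whether replicates came from separate cultures, so the spread between replicates may be technical. They also do not say whether the FLI1 antibody separates the fusion from FLI1 itself, and peaks are therefore called FLI1 regions.

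Polycomb proteins keep developmental genes silent through chromatin. PRC2 methylates lysine 27 of histone H3, with EZH2 or EZH1 as the enzyme, SUZ12 and EED as the scaffold and the reader of the mark, and JARID2 as an accessory subunit that helps to bring the complex to its sites. In PRC1, RING1 and RNF2 are the ubiquitin ligases for histone H2A, BMI1 is their partner, and CBX2 and CBX7 are chromodomain subunits that bind H3K27me3. EWSR1::FLI1 carries the DNA-binding ETS domain of FLI1, which recognises GGAA and also binds tandem GGAA repeats, and EZH2 is known as a target of the fusion in Ewing sarcoma.

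The FLI1 lists held 29339 to 40590 regions, the H3K27ac lists 10219 and 17366, the H3K27me3 lists 21461 and 16667, and the H3K9me3 lists 36687 and 21770. Read totals were not analysed here, so the depth behind a region is unknown, and a missing region means only that none was called at that depth. Occupancy in a few cells and weak occupancy in all cells cannot be told apart in such bulk samples. All 8 Ewing sarcoma fusion targets used to check the cells had FLI1 regions in the 4 lists over the gene and its flanks, as did 56.3% of all protein-coding genes. None of the 6 genes of other lineages had H3K27ac at its start, where 25.1% of all genes had it in any library. Only 1 of the 8 targets (STEAP1) had it there, and EPCAM of the other lineages had FLI1 regions in all 4 lists.

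At their starts the 10 genes had FLI1 regions more often than they had any histone mark, as did all protein-coding genes. A FLI1 region lay within 1 kb of the start in all 4 FLI1 libraries at 6 genes (EZH1, EED, SUZ12, JARID2, RING1 and CBX2), where 35.4% of all protein-coding genes had the same. Each of the 10 had such a region in at least 1 library, against 56.6% of all genes. Of the 6, SUZ12 lost the call when only peaks with a −log10 q of at least 5 were counted, and EED lost it when the start of the gene record was used. H3K27ac was called in both replicates at the starts of EED and RING1 alone, 2 of 10 genes against 12.4% of all genes, and EZH2 had it in 1 replicate (3 of 10 with any call, against 25.1%). Neither call remained at a −log10 q of at least 5, and that of EED was lost with 500 bp either side or the gene record's start. H3K27me3 was called at none of the 10 starts in either replicate, where 9.96% of all genes had it in both replicates and 12.4% in any. H3K9me3 was likewise called at none of the 10 in either replicate, against 1.25% of all genes in both and 2.53% in any. With so few genes these shares are descriptions, and no test was made of them.

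Over the gene with 10 kb either side, 9 of the 10 genes had a FLI1 region in all 4 libraries, every gene but RNF2, where 56.3% of all genes did. H3K27ac regions in both replicates were found at 7 genes (EZH2, EED, SUZ12, JARID2, BMI1, RING1 and CBX2), against 28.3% of all genes. H3K9me3 regions in both replicates were found at EED, JARID2 and RNF2, 3 of 10 genes against 25.3%. H3K27me3 was found in both replicates at BMI1 only, 1 of 10 genes against 17.6%. Longer genes have more room for a region, and the 10 gene records ran from 4.2 kb at RING1 to 276.0 kb at JARID2.

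**Figure D1:**
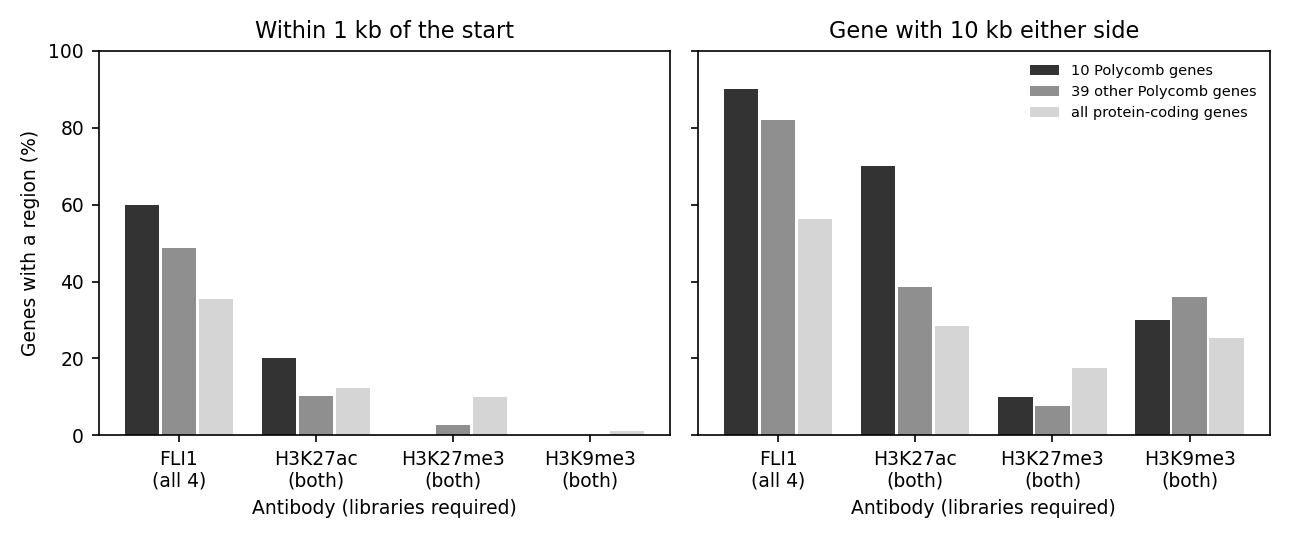
Share of genes (y axis, %) with a region of each antibody in all of its libraries (x axis), within 1 kb of the start (left) and over the gene with 10 kb either side (right), for the 10 Polycomb genes, 39 other Polycomb genes and all protein-coding genes. At the start, FLI1 stands at 6 of the 10 genes and both repressive marks at 0.

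FLI1 strength was read from the deposited fold, the ratio of signal to the IgG control that the authors' peak caller gave to each region. Since fold depends on each library's depth, the strongest region within 1 kb of a start was placed by its percentile of fold among all regions of the same list, and a gene with no region was given 0. The mean of the 4 percentiles had a median of 47.9 over the 10 genes, 42.3 over 39 other Polycomb genes and 13.6 over all protein-coding genes. Among the 7067 genes with FLI1 at the start in all 4 libraries the median was 74.1, and JARID2 was the only one of the 10 above it. The order of the means was JARID2, CBX2, RING1, EED, EZH1, CBX7, SUZ12, RNF2, EZH2 and BMI1. From CBX2 down to BMI1, every neighbouring pair in that order had overlapping percentiles, while every JARID2 value was above every CBX2 value.

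**Figure D2:**
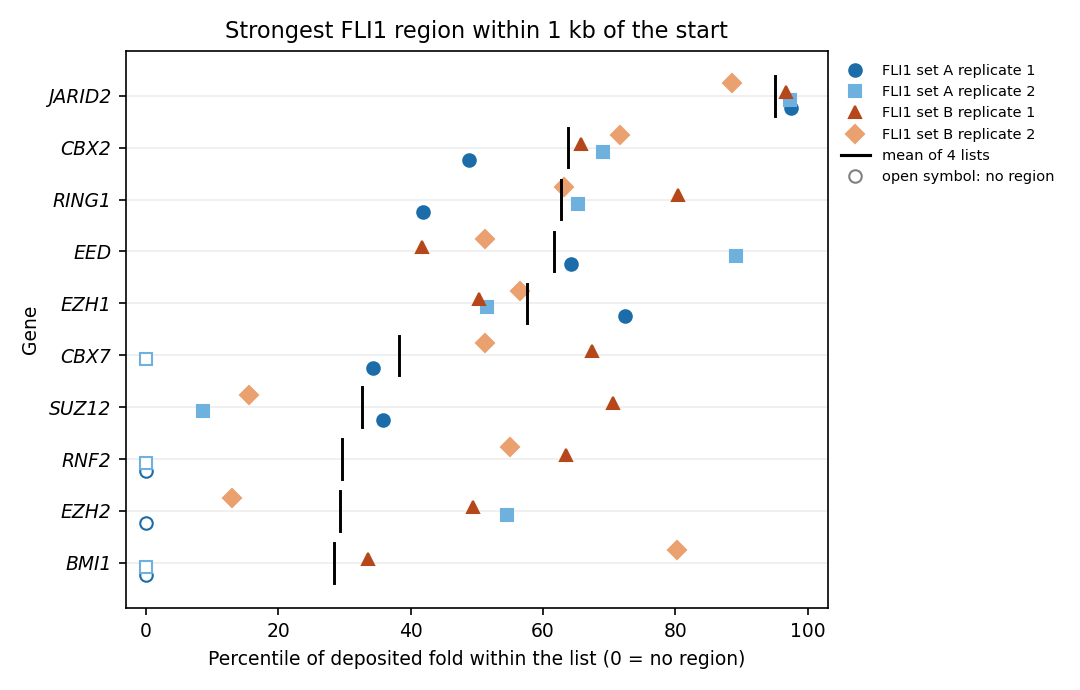
Percentile of deposited fold within its list (x axis) of the strongest FLI1 region within 1 kb of the start of each gene (y axis), by library, with the mean of the 4 as a bar and open symbols at 0 for no region. JARID2 lies between 88.5 and 97.4, and BMI1 and RNF2 have regions in set B only.

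EZH2, the main methyltransferase of PRC2, had a modest FLI1 region at its start and a strong one far inside the gene. The gene lies on the minus strand at chr7:148807257-148884321. Near the start no region was called in set A replicate 1, and the fold was 6.92 in set A replicate 2, 8.12 and 5.19 in replicates 1 and 2 of set B, at percentiles 54.6, 49.4 and 13.1. Their summits lay at -281, -222 and -263 bp, where negative positions are upstream of the start. Within intron 3, at chr7:148837163-148839853, a region was called in all 4 libraries. Its fold was 28.5 and 27.3 for the set A replicates and 16.1 and 17.9 for those of set B, and its percentiles were 95.2, 95.2, 85.3 and 90.2. The intronic region was thus above the start region in every library, and set A lay above set B in both fold and percentile. This stretch is printed because it holds the longest GGAA run of all FLI1 sites found at the 10 genes, with the EZH2 start site below it for comparison. Both are on the gene's strand of hg38, with GGAA and its reverse complement TTCC in capitals, and both were picked after their values were seen.
EZH2 intron 3, chr7:148839007-148839157, minus strand: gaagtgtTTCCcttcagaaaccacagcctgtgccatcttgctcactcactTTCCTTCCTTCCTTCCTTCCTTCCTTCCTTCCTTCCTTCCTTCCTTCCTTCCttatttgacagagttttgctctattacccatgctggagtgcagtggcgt
EZH2 start, chr7:148884479-148884629, minus strand: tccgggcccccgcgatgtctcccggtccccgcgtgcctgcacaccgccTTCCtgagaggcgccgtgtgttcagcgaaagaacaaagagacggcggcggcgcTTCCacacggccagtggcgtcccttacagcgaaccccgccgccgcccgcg

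The intronic run has 13 units in a row, at 45184 to 45235 bp past the start (chr7:148839056-148839107). The summit of set B replicate 1 lay on one side of it at 45001 bp, and the summits of the other libraries lay on the other side at 45422, 45433 and 45475 bp. Merging overlapping FLI1 regions of the 4 lists gave 82 sites at the 10 genes and their flanks. This was the only one of the 82 with a run of at least 4 units within 250 bp of a summit. By list, 1 of 58 and 0 of 63 summits at the 10 genes in set A and 1 of 56 and 1 of 40 summits in set B had such a run, where 3.86%, 3.81%, 3.84% and 4.08% of all summits did. The EZH2 region of set A replicate 2 held the whole run, but only 2 units lay within 250 bp of its summit. One further site, at EED, had a run of 3 units at -9605 bp, and the others had at most 2 in a row. The 151 bases printed for the EZH2 start hold 2 single GGAA or TTCC words, and the 250 bp either side of its summits hold 5 or 6, with no 2 in a row. Over all summits the mean was 6.68 and 6.69 words for the set A replicates and 7.31 and 7.36 for those of set B. CCGGAAGT, the classical ETS site, searched on both strands, was present in 1 of the 82 sites, the one at the neighbouring CBX8 start. By list it was within 250 bp of 1, 1, 1 and 0 of those summits, against 3.87%, 3.53%, 4.21% and 5.16% of all summits. In the 300 bp promoters, from 250 bp before to 50 bp after the start, it was in none of the 10, against 6.16% of all 19962 promoters. GGAAGGAA was also in none of the 10 promoters, against 3.48%. GGAA alone, which also occurs inside the other words, was in 9 of 10 (not CBX2), against 94.8%.

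H3K27ac, a mark of active promoters and enhancers, flanked the EZH2 start on its downstream side in intron 1. In replicate 1 the region ran from 1051 to 1402 bp, with a fold of 5.55 at percentile 71.6 of its list. In replicate 2 it ran from 877 to 1350 bp, with a fold of 7.55 at percentile 97.1, so that only replicate 2 reached into the 1 kb window. A wider pair lay deeper in intron 1, from 34557 to 35496 bp in replicate 1 with a fold of 6.34 and from 34506 to 35576 bp in replicate 2 with a fold of 6.87. Another pair lay beside it, from 35882 to 36580 bp in replicate 1 and from 35937 to 36391 bp in replicate 2. That pair overlapped a FLI1 region called in set B replicate 1 only, with a FLI1 fold of 6.58. No H3K27ac region overlapped the intron 3 FLI1 site in either replicate. A weak H3K9me3 region of 307 bp at 14660 bp was called in replicate 1 only, with a fold of 4.21. The nearest H3K27me3 region was 362732 bp from the start in replicate 1 and 296942 bp in replicate 2.

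**Figure D3:**
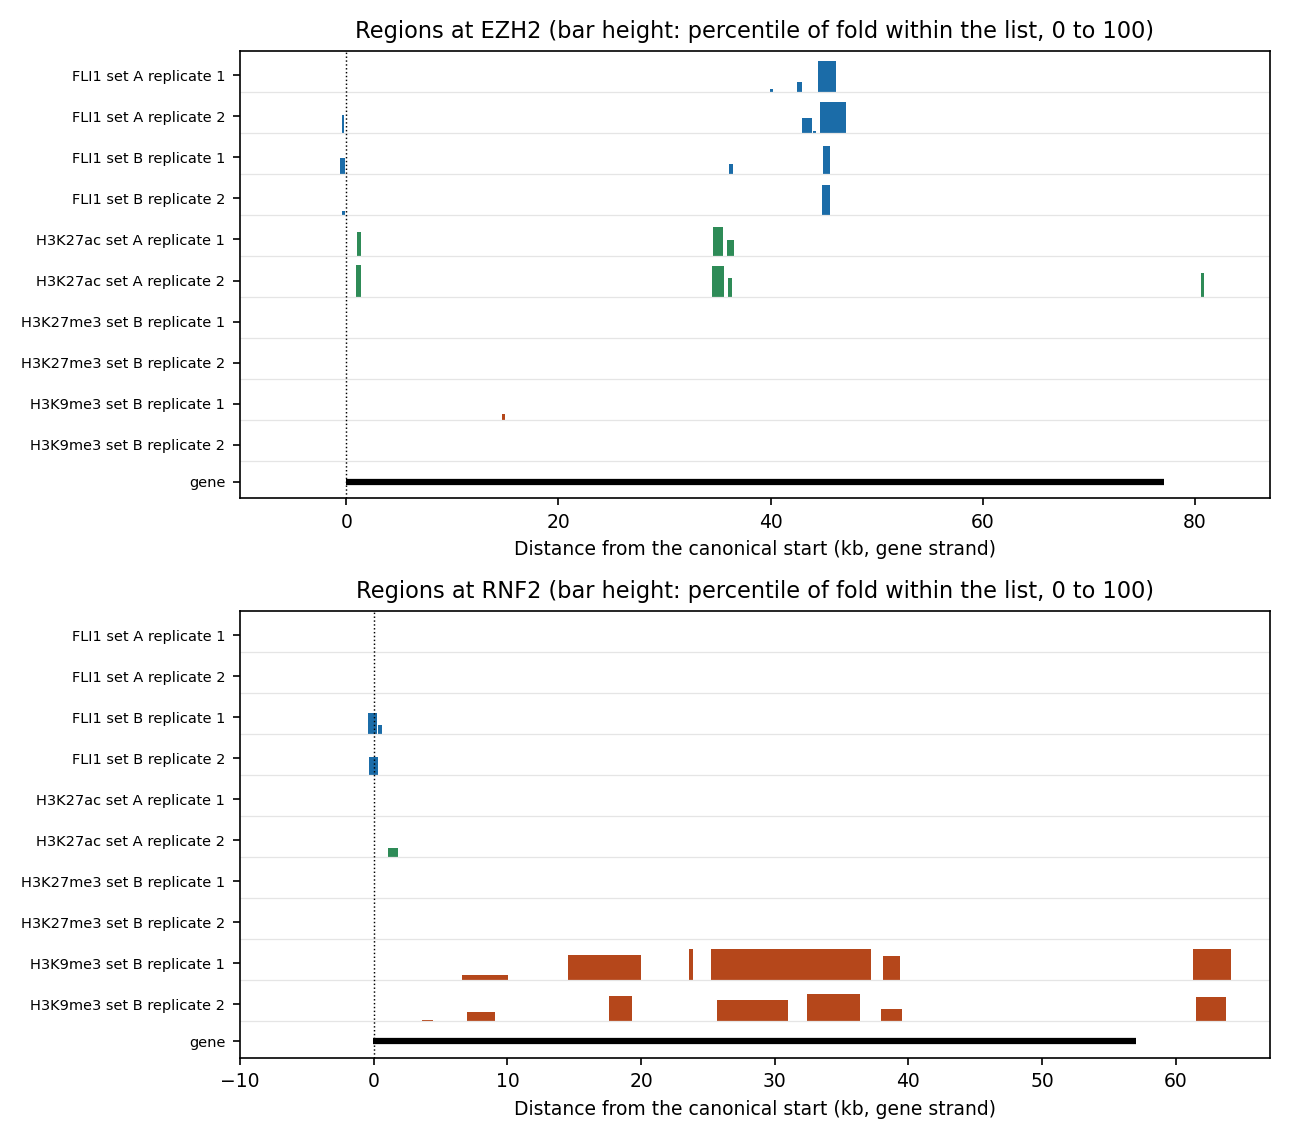
Regions of the 10 lists (rows) over EZH2 (top) and RNF2 (bottom) by distance from the start (x axis, kb along the gene's strand); bar height is the percentile of fold within the list and the black bar is the gene. EZH2 shows the intron 3 FLI1 site in all 4 libraries, and RNF2 shows 6 and 8 H3K9me3 regions, with FLI1 regions in set B only and only near the start.

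EZH1, the second methyltransferase, had 1 FLI1 site, called in all 4 libraries. The gene is on the minus strand at chr17:42700275-42745049, and the site lay at the beginning of intron 1. Fold was 9.89 and 6.69 for the set A replicates and 8.24 and 8.64 for those of set B, and the mean percentile was 57.6 ± 10.2 (SD, n = 4 libraries). The 4 summits fell between 161 and 208 bp. Neither repressive mark was called at EZH1 or its flanks, and the only H3K27ac region was downstream of the gene, at 45693 bp, in replicate 2 alone.

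EED, the subunit that reads H3K27me3, had 2 neighbouring FLI1 sites at its start and H3K27ac beside them. The gene record is chr11:86201212-86278813 on the plus strand, and the start used here, of the Ensembl canonical transcript, lies 43541 bp inside it. At the site around the start the fold was 8.48 and 16.8 for the set A replicates and 7.37 and 7.0 for those of set B. The second site had its summits at 525 to 598 bp. Its folds were 5.37 and 7.06 for the set A replicates and 4.10 and 8.12 for those of set B. For the strongest region of each library, the percentiles were 64.3 and 89.2 for the set A replicates and 41.7 and 51.2 for those of set B, which do not overlap. H3K27ac covered intron 1 from 594 to 1130 bp in replicate 1 (fold 4.99) and from 596 to 1222 bp in replicate 2 (fold 4.43), over the second FLI1 site. An H3K9me3 region was called in both replicates upstream of this start but inside the gene record, with folds of 5.33 and 5.54 and 1768 bp shared. The EED promoter held 11 GGAA words, where the median promoter held 3.

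SUZ12, the scaffold of PRC2, had FLI1 regions at its start that varied in strength and did not all coincide. On chr17:31937007-32001038 (plus strand), fold was 5.85 and 4.15 for the set A replicates and 11.2 and 5.41 for those of set B, at percentiles 35.9, 8.70, 70.6 and 15.6, with summits at -410, -223, 23 and 137 bp. The region of set A replicate 1 shared no base with the other 3, so the call in all 4 libraries rests on 2 adjacent sites. H3K27ac lay just past the 1 kb window in intron 1 in both replicates, from 1140 to 1740 bp with a fold of 6.03 and from 1375 to 1929 bp with a fold of 6.87. These ranked at percentiles 83.4 and 93.5 of their lists. Within 5 kb of the start the genes with H3K27ac in both replicates numbered 5 of 10 (EZH2, EED, SUZ12, BMI1 and RING1), against 17.2% of all genes. The BMI1 region in that count lies at the start of COMMD3.

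JARID2, the accessory subunit of PRC2, carried the strongest FLI1 region at a start and by far the largest number of FLI1 sites. The gene spans chr6:15246069-15522042 on the plus strand. At the start the fold was 42.1 and 39.2 for the set A replicates and 30.6 and 16.7 for those of set B, at percentiles 97.4, 97.3, 96.7 and 88.5. Every set A value was above every set B value, and the 4 summits lay within 24 bp of each other, from -512 to -536 bp. The mean percentile of 94.98 ± 4.34 (SD, n = 4) was exceeded by 677 genes, 3.39% of all. A second site, with its strongest summits at 2862 to 2951 bp in intron 1, had folds of 26.9, 16.4, 22.5 and 16.7. These strong regions lay outside the 1 kb window. The site reached into the window only through a weaker region of set A replicate 2, with its summit at 909 bp and a percentile of 29.2. The most intense intronic site lay in intron 3 at chr6:15437004-15441719, with folds of 43.4 and 52.2 for the set A replicates and 21.2 and 18.9 for those of set B and percentiles of 97.6, 98.2, 91.7 and 91.5. The start site is printed because JARID2 ranked first by strength, and the intron 3 site, picked after its values were seen, because its fold was above that of the start in 3 of the 4 libraries.
JARID2 start, chr6:15245479-15245629, plus strand: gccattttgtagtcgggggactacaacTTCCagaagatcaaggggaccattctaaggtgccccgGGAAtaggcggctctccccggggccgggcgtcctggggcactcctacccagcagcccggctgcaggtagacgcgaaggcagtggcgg
JARID2 intron 3, chr6:15439246-15439396, plus strand: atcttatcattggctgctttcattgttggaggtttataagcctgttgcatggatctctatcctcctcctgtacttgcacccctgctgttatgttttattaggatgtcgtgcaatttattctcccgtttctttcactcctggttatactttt

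The 151 bases printed for the start site hold 1 TTCC and 1 GGAA, again in capitals, and those around the intron 3 summits of set A hold none. Within 250 bp of the start site's summits there were 7 or 8 such words, and no 2 of them in a row. Within 250 bp of the intron 3 site's strongest summits there were 6 in each set A library and 9 in each set B library. All summits of a list had means of 6.68 to 7.36 such words. Over the 296.0 kb window the 4 lists held 38, 42, 31 and 22 FLI1 regions, where the median gene had 1 in each list. Per 100 kb this was 12.8, 14.2, 10.5 and 7.43 regions, against medians of 1.61, 1.70, 2.07 and 1.66, so JARID2 was above the median per length as well as in number. In set B the short windows of BMI1 and RING1 were denser than JARID2, with 19.7 and 16.5 regions per 100 kb in replicate 1 and 13.2 and 12.4 in replicate 2. CBX2 was also denser in set B replicate 2, at 10.1 per 100 kb. These rest on 3 to 6 regions a gene. Between 3.12% and 10.5% of all genes were denser, depending on the list. The regions merged into 48 of the 82 sites, of which 12 were in all 4 lists, 7 in 3, 5 in 2 and 24 in 1. Of the 12, 11 lay in introns, and none of the 12 overlapped an H3K27ac region.

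The histone marks were sparse at JARID2. One H3K27ac region was called in each replicate, both in intron 2, with folds of 4.27 and 5.39 and 99 bp in common. Both overlapped a FLI1 site called in 3 lists, at percentiles 63.8 and 81.9 in the set A replicates and 56.5 in set B replicate 1. H3K9me3 was called in 2 regions in each replicate, covering 5680 bp in replicate 1 and 4227 bp in replicate 2. The stronger region of each replicate lay in intron 3. It was at chr6:15415103-15420326 in replicate 1 (fold 5.21) and at chr6:15415910-15419901 in replicate 2 (fold 5.16). No FLI1 site at any of the 10 genes shared a base with H3K9me3. No H3K27me3 region was called closer than 424017 bp to the JARID2 start in either replicate.

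**Figure D4:**
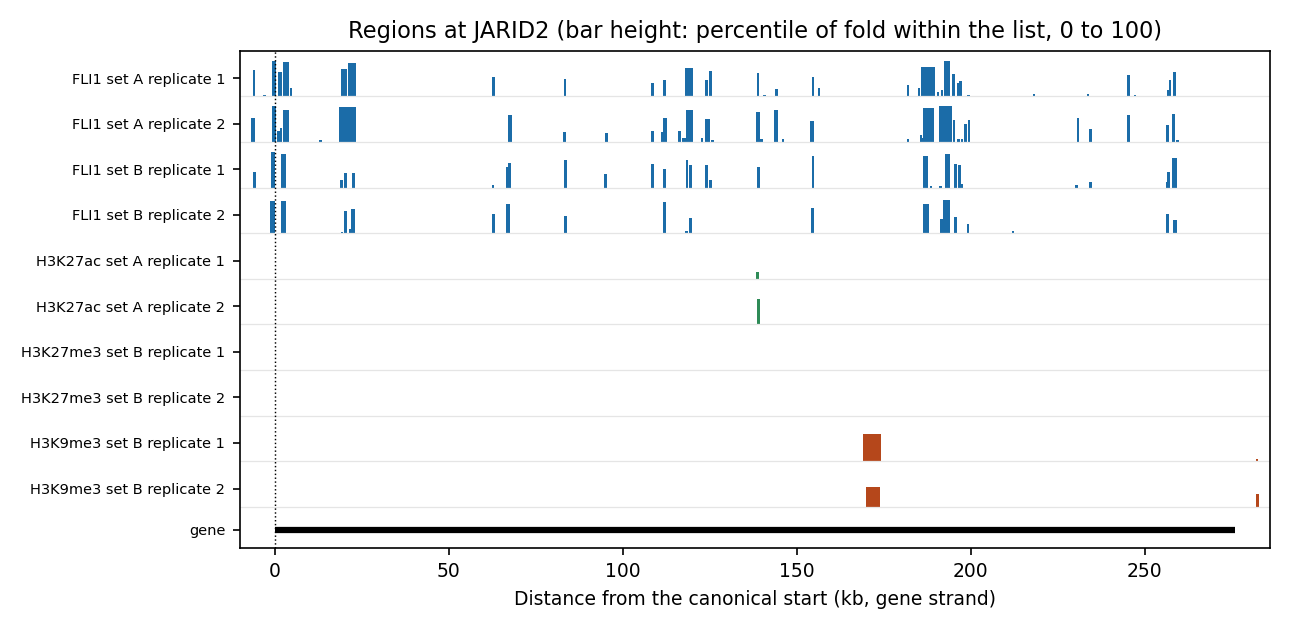
Regions of the 10 lists (rows) over JARID2 by distance from the start (x axis, kb along the gene's strand); bar height is the percentile of fold within the list and the black bar is the gene. The 4 FLI1 lists hold 38, 42, 31 and 22 regions, each H3K27ac list holds 1 and the H3K27me3 lists hold 0.

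BMI1, the PCGF partner of the ligases, had FLI1 at its start in set B only. The gene is at chr10:22321099-22331484 on the plus strand. In set A neither replicate had a region there, and in set B the fold was 6.74 and 13.1 at percentiles 33.5 and 80.2, with summits at -245 and -267 bp. This holds for the canonical start and 1 kb, since BMI1 had FLI1 in all 4 libraries when any coding transcript's start or 5 kb either side was used. A second site in intron 1 was called in all 4 libraries, with folds of 3.81 and 4.83 for the set A replicates and 11.2 and 9.16 for those of set B, so that set B was again the higher. H3K27ac was called in both replicates at -4479 to -4253 bp and -4427 to -4151 bp, within 1 kb of the starts of COMMD3 and COMMD3-BMI1, and cannot be assigned to BMI1. BMI1 was the only gene of the 10 with H3K27me3 within 10 kb, downstream of the gene. The fold was 4.26 in replicate 1 and 4.99 in replicate 2, the −log10 q was 2.50 and 3.63, and the 2 regions shared 0 bp.

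RING1 and RNF2, the paired ubiquitin ligases, differed in both FLI1 and marks. RING1 (chr6:33208500-33212722, plus strand) had FLI1 in all 4 libraries, with folds of 6.20 and 8.14 for the set A replicates and 14.0 and 9.57 for those of set B, and summits in exon 1 between 30 and 113 bp. H3K27ac overlapped the site in both replicates, from -561 to -83 bp with a fold of 4.51 and from -728 to -214 bp with a fold of 4.53. RXRB, SLC39A7 and HSD17B8 start within 10 kb of RING1, and the other FLI1 sites of its window called in all 4 libraries lay at those starts. RNF2 (chr1:185045526-185102603, plus strand) had no FLI1 region in set A, and folds of 9.89 and 8.54 in set B, with both summits at 42 bp.

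RNF2 stood apart by H3K9me3, a mark of heterochromatin. The lists held 6 and 8 regions in its window, covering 25183 bp in replicate 1 and 18075 bp in replicate 2. Bases in both replicates came to 16974, or 22.02% of the window, and 324 genes (1.62% of all) had a larger share. All but the last region of each replicate lay in intron 1, and the longest, at chr1:185070817-185082745 in replicate 1, had a fold of 6.08. The edge nearest to the start was at 6597 bp in replicate 1 and 3574 bp in replicate 2, so the start itself was free of called regions. By comparison the share in both replicates was 1.43% at JARID2 and 1.81% at EED. H3K27ac was called past the RNF2 start in replicate 2 only, from 1086 to 1801 bp with a fold of 4.30.

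CBX2, a chromodomain subunit of PRC1, had the second highest FLI1 strength at a start. On chr17:79778148-79787983 (plus strand) the fold was 6.72 and 8.73 for the set A replicates and 10.2 and 10.95 for those of set B, at percentiles 48.7, 69.0, 65.7 and 71.6. Summits were at -512 and -550 bp in set A and at -274 and -317 bp in set B, so the sets were apart in position while their percentiles overlapped. The stretch printed, for the second gene by strength, lies between the summits of the sets and holds 5 GGAA or TTCC words, in capitals, while the whole site holds at most 2 units in a row.
CBX2 start, chr17:79777659-79777809, plus strand: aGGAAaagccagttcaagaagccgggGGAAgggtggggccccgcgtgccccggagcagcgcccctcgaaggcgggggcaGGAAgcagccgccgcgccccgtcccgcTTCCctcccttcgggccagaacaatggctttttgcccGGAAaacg

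The 2 other CBX2 sites were also in all 4 lists, downstream of the gene. One, with summits at 15722 to 15805 bp, overlapped weak H3K27ac regions (folds of 3.75 and 3.74). The other was at the start of CBX8, the neighbouring chromodomain gene. CBX7 (chr22:39120167-39152680, minus strand) had a FLI1 region at its start in 3 libraries. Its fold was 5.77 in set A replicate 1, with no region in set A replicate 2, and 10.6 and 8.12 in set B, with summits between -314 and -245 bp. In intron 2 of CBX7, 2 sites were called by both replicates of set A but none of set B. CBX7 had no H3K27ac, H3K27me3 or H3K9me3 region over the gene or its flanks in any list.

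Set A and set B gave different FLI1 calls at several of these starts. FLI1 was called in both set B libraries at all 10 starts, where 46.8% of all genes had it, and in both set A libraries at 6, where 38.3% did. A call by both replicates of set B but none of set A was found at BMI1 and RNF2, 2 of 10 genes against 5.89% of all genes. The opposite pattern was found at none of the 10 starts, against 1.09%. By percentile, with absence as 0, both set A values were above both set B values at JARID2 and EED and below them at CBX7, RNF2 and BMI1. In set A, RNF2 and BMI1 had no region in either replicate, and CBX7 had none in replicate 2. How many of all genes separate in this way was not counted, so no result is drawn from these genes. With 2 libraries against 2, an exact permutation test cannot go below p = 0.33, so no test was made. Whatever the letters stand for cannot be told apart from the spread between libraries.

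The wider Polycomb machinery was read from 39 other genes, comprising PRC2 partners, other PRC1 subunits, the H2A deubiquitinase and the H3K27 demethylases. FLI1 was called at the start in all 4 libraries at 19 of them (48.7%), against 35.4% of all protein-coding genes. H3K27ac in both replicates was at the starts of 4 (MTF2, DCAF7, ASXL2 and KDM6A, 10.3%), against 12.4% of all genes. H3K9me3 was at 0 of these starts in either replicate, where 2.53% of all genes had it in any. Only ASXL3 had H3K27me3 at its start in both replicates, 2.56% of the 39 against 9.96% of all genes. The strongest FLI1 starts were those of KDM6B, an H3K27 demethylase, with a mean percentile of 97.7, PHF1, a PRC2 partner that binds H3K36me3, with 97.0, and RBBP4, the histone chaperone of PRC2, with 95.2. JARID2, at 94.98, stood next to these. The call in set B alone that BMI1 and RNF2 showed was also found at 7 of the 39 (17.9%), against 5.89% of all genes. These were AEBP2, EPOP, PCGF5, PHC3, RYBP, YAF2 and BCOR.

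Likeness was scored as an identical pattern of presence over the 10 lists at the start. EZH1, SUZ12, JARID2 and CBX2 shared the pattern of FLI1 in all 4 libraries and no mark, which 3504 genes outside the set (17.5% of all) had, among them CBX8, PHC2, PHF1, BAP1 and KDM6B. EED and RING1 shared FLI1 in all 4 with H3K27ac in both replicates, as did 1742 further genes (8.72%), with MTF2, DCAF7, ASXL2 and KDM6A the Polycomb genes among them. The pattern of BMI1 and RNF2 was found at 769 further genes (3.85%), and that of CBX7 at 316 (1.58%), including PCGF2 and CBX6. EZH2 had the rarest pattern, shared with 110 genes (0.551%) and with no other Polycomb gene of the list. The pattern rests on calls that differed between replicates. FLI1 was not called in set A replicate 1. The nearest H3K27ac edge was at 877 bp in replicate 2 and at 1051 bp in replicate 1, on either side of the 1 kb limit.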

How the data were processed

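The 10 deposited peak lists, 1 per antibody library, were used. Per the names of the files and of the peaks in them, the authors called narrow (FLI1, H3K27ac) or broad (H3K9me3, H3K27me3) peaks for each library alone, with the matching IgG library of its set as control. The submitters' processing notes name cutadapt 4.4, Bowtie2, Picard 2.17.11, MACS2 2.1.1 and hg38 (GRCh38), with no role or order. The deposited fold is a ratio of signal to IgG, and the deposited significance is a −log10 p-value and q-value. The IgG samples' own profiles were not analysed here.

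Overlapping entries within a list were merged, keeping the most significant. The 22 autosomes and X were used. A start was that of the Ensembl canonical transcript in GENCODE release 44, and at least 1 shared base counted. Absence was given percentile 0. Motifs were searched on both strands. Overlap counting was tested on a simulated list, where it found 200 of 200 planted genes. The genes and lists were chosen with earlier results of these data known. All 10 genes are named. Of the 39 other Polycomb genes, the 3 strongest by FLI1 and any with a repressive mark in both replicates at the start were to be named. Others were named after their values were seen. No test between groups was made. Alternatives covered windows, thresholds, overlap, ranking and leaving out each library. Python 3.11.15, numpy 2.4.6, pandas 2.3.3 and matplotlib 3.10.9 were used.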

Additional observations from a re-analysis of the deposited data

How the results depend on the processing

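Of 77 alternatives to the 9 summary values, 64 stayed within 1.5 times the count (or 1 SD of the strength) and 13 moved further. The genes with FLI1 at the start numbered 10 when any 1 library was enough (6 in all 4). H3K27ac at starts (2 genes) fell to 1 with the gene record's start or with 500 bp either side and to 0 with a −log10 q of at least 5, and rose to 5 with 5 kb. H3K27ac over genes (7) fell to 4 in the gene body alone and to 2 (EZH2 and SUZ12) at the stricter q. H3K27me3 over genes (1, BMI1) fell to 0 under both of those settings. H3K9me3 over genes (3) fell to 1 (RNF2) at the stricter q and rose to 5 with any 1 library. Leaving out each library gave ranges of 6 to 7 for FLI1 at starts, 2 to 3 for H3K27ac at starts, 7 to 9 for H3K27ac over genes, 3 to 5 for H3K9me3 over genes (5 without H3K9me3 set B replicate 2) and 42.6 to 51.7 for the median FLI1 percentile. That median moved from 47.9 to 35.5 with the start of the gene record, which for EED lies 43541 bp upstream. H3K27me3 and H3K9me3 at starts stayed at 0 genes under every alternative run. No paired analysis was possible because the results come from no test. Read depth is unknown, so a region missing from a list may lie below what that library could show.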
